A study of Homo sapiens with 4 samples.

Results

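The 50 protein-coding genes whose symbols begin with PSM, a letter from A to G and a digit were taken from the 61541 gene rows of each library. They hold 8 alpha and 11 beta subunits of the proteasome core, 6 ATPases and 11 other subunits of its regulatory cap, 4 activators, 8 assembly factors and inhibitors, and 2 genes (PSMC3IP and PSME3IP1) that carry such a symbol without being part of the particle. Pseudogenes, antisense transcripts and read-through genes were left out. All RNA came from H1299, an established human lung carcinoma cell line grown in Dulbecco's modified Eagle medium with serum and antibiotics. The cells of 2 libraries had received phosphate-buffered saline (PBS) and those of 2 others ginseng nanoparticles, and messenger RNA was sequenced with a strand-preserving kit. No dose, exposure time or plant part is stated. The titles of the nanoparticle libraries also bear the word control, and the groups here follow the treatment label. Whether replicates were separate cultures is not stated either. Each p-value sets the difference between groups against the spread between libraries of the same group, and that spread may be technical.

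The proteasome is the barrel-shaped protease that degrades proteins tagged with ubiquitin. Its core is a stack of rings in which alpha subunits form the gated outer rings and beta subunits the inner ones, where the catalytic sites lie, while the cap binds ubiquitin chains, removes them and threads the substrate inward by ATP hydrolysis. When the particle is inhibited, the transcription factor NFE2L1 raises most subunit genes together through antioxidant response elements in their promoters, and the related factor NFE2L2 can raise some of them under oxidative stress. Interferons replace the constitutive catalytic subunits by inducible ones, which gives the immunoproteasome.

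Counts on genes ranged from 22252686 to 24979081 per library. KRT8, KRT18 and VIM, an intermediate filament set found in many carcinoma lines, had at least 14265 counts in every library. Each was called lower with nanoparticles, with log2 fold changes of -0.11, -0.16 and -0.092 (edgeR adjusted p = 0.024, 5.3e-04 and 0.014). The mesenchymal marker CDH2 had 1021 to 1139 counts and did not pass, whereas the epithelial markers KRT19, EPCAM and CDH1 had 1 to 9. The 13 markers of leukocytes, endothelium, fibroblasts and red cells had 0 to 21 counts, with PTPRC and HBB at 0 in all 4 libraries. In bulk RNA a shift in the share of cells with a gene and a shift in its RNA per cell cannot be told apart.

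None of the 48 genes with enough counts to be tested, the 2 with a matching symbol only included, passed an adjusted p of 0.05 between nanoparticle and PBS libraries in edgeR's quasi-likelihood test, against 2.58% of all 15778 genes tested (1.75% higher and 0.83% lower with nanoparticles). The differences between these libraries were bounded closely: the 95% interval of the fold change lay inside 1.25-fold in either direction for 45 of the 48. These intervals rest on the same spread among libraries, which may be technical, and may not bound a difference between cultures. The exceptions were PSMA2, PSMB10 and PSMD9. The median log2 fold change of the members was -0.018, and that of all tested genes was 0.00056. At an unadjusted p under 0.05 stood 4 members (PSMC2, PSMD9, PSMD12 and PSME4), where 16.8% of all genes did so. DESeq2 put 1 member under that level and limma-voom 5, against 5.97% and 16.9% of all genes. Both nanoparticle libraries lay above both PBS libraries for 9 members and below them for 14, against 23.7% and 23.2% of all tested genes.

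Other ways of processing called no member or 1. None was called with DESeq2 (0.57% of all genes called), limma-voom (2.69%), relative-log-expression scaling (2.38%), upper-quartile scaling (2.62%), the length trend removed (1.45%), the length and GC trends removed (1.7%), or without nanoparticle replicate 1 (1.24%) or 2 (0.473%). PSME4 alone was called, as higher, with total-count scaling (3.02% of all genes called), a mean of at least 50 counts (4.8%), no mitochondrially encoded genes (2.96%) and the replicate number as a block (4.81%). Without PBS replicate 1, without PBS replicate 2 or without a low-count filter, no gene of the whole table was called. The remaining 2 members, PSMA8 of the testis and PSMB11 of the thymus, had no count in any library. Such a zero allows up to 3 counts, or 0.120 to 0.135 CPM (counts scaled by library size), by counting error alone.

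**Figure D1:**
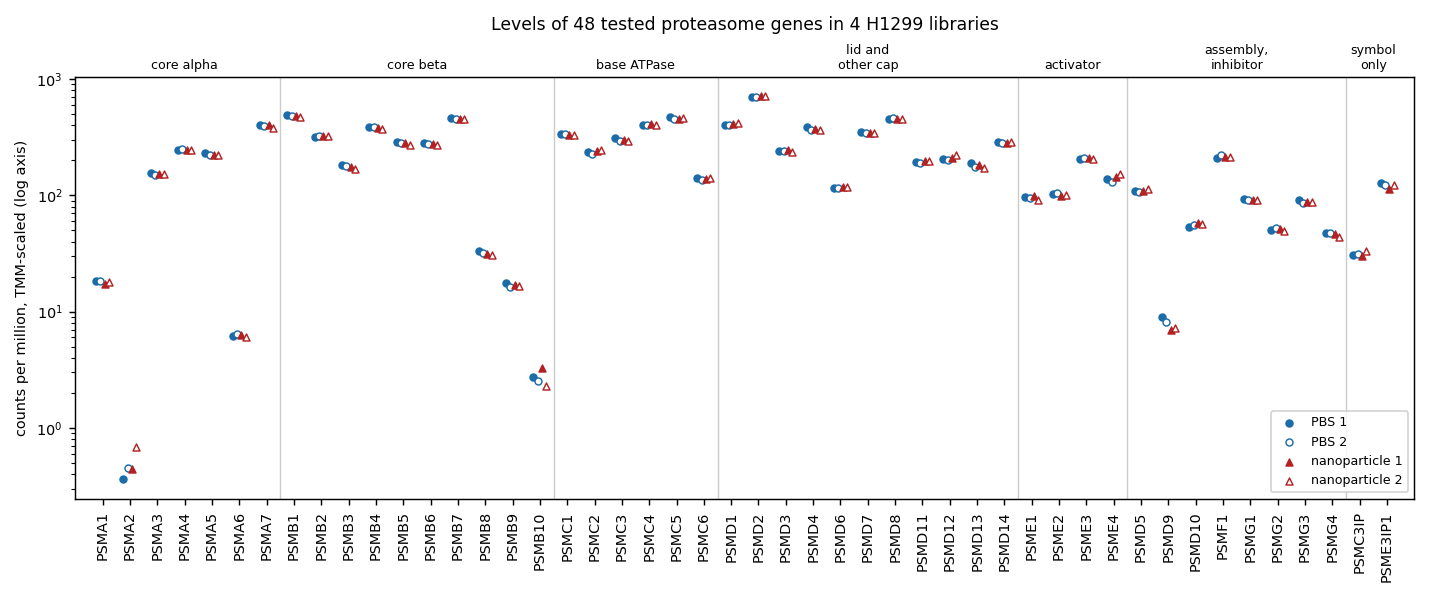
Level of each of the 48 tested genes in CPM on a log axis, ordered by role, with circles for the PBS libraries and triangles for the nanoparticle libraries. The 4 points of a gene nearly coincide for most genes, while levels run from 0.360 CPM for PSMA2 to 715 CPM for PSMD2.

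**Figure D2:**
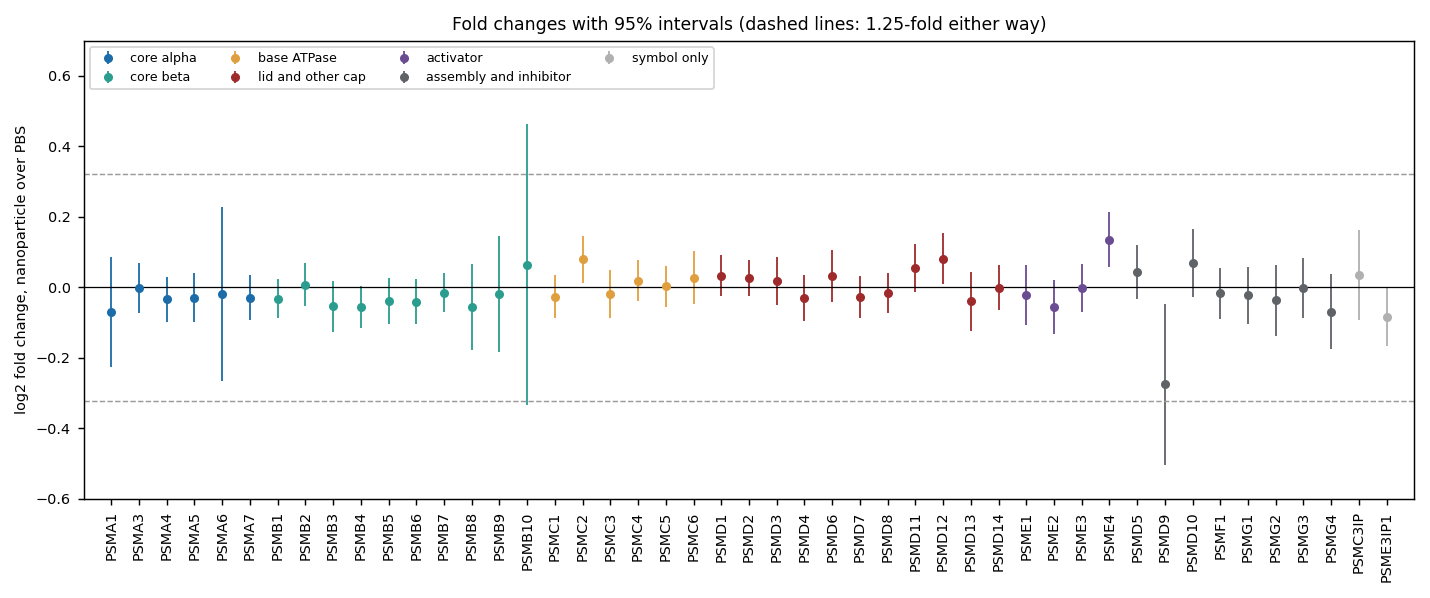
Log2 fold change of nanoparticle over PBS for the tested genes (points) with 95% intervals (bars), coloured by role, with dashed lines at 1.25-fold. PSMA2, whose interval runs from -0.39 to 1.33, is left out to keep the axis readable, and the intervals of PSMB10 and PSMD9 cross a dashed line.

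The stretches before the starts of the 4 members with an unadjusted p under 0.05 are shown because subunit genes are known to be raised together through elements there. These genes were picked by their edgeR p in these data, at a level that 16.8% of all genes reached. They are not taken as a responding set. They are the 250 bases upstream of each RefSeq start on build GRCh38.p14, with matches to TGACNNNGC, the letters of the antioxidant response element, in capitals on either strand. The windows are chr7:103347393-103347642 on the plus strand for PSMC2, chr17:67366578-67366827 on the minus strand for PSMD12, chr12:121888540-121888789 on the plus strand for PSMD9 and chr2:53970994-53971243 on the minus strand for PSME4.
PSMC2: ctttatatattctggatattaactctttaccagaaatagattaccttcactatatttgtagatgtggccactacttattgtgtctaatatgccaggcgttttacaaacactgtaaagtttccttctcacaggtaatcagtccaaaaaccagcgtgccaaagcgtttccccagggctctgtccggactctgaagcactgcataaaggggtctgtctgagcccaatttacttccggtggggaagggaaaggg
PSMD12: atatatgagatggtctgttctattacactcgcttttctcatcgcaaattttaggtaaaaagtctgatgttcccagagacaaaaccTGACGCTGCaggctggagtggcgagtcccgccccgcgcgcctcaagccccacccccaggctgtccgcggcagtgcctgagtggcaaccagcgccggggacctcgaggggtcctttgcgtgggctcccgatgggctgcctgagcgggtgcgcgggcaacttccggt
PSMD9: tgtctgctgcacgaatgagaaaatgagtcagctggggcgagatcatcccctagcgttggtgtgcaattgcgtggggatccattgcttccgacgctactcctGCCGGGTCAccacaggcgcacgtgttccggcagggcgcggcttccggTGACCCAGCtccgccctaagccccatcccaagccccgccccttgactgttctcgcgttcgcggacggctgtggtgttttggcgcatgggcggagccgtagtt
PSME4: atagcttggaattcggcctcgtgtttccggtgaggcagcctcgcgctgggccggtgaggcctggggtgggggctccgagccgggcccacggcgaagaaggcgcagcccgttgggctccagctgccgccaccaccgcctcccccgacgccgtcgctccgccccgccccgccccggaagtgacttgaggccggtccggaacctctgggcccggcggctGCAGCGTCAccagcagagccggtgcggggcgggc
PSMD12 and PSME4 hold 1 match each, PSMD9 holds 2, and PSMC2 has none in its window. PSMD9 had the lowest estimate of all members (log2 fold change -0.28). The estimates of PSMC2 (0.080), PSMD12 (0.082) and PSME4 (0.14) were above 0. Over the 44 members with a promoter in the RefSeq table, 13 had a match in at least 1 window (29.5%), compared with 13.2% of the 27305 genes in that table. The members with a match were PSMA4, PSMB3, PSMB9, PSMC5, PSMD12, PSMD3, PSMD5, PSMD9, PSME1, PSME2, PSME4, PSMG1 and PSMG2. No member passed the test, with or without a match, so its outcome cannot bear on the matches. The CCAAT box, searched as CCAAT on either strand, was found for 21 of the 44 members (47.7%) and for 37.0% of all genes. The shares over all genes were not matched to the members for expression, coding status, base composition or number of windows per gene. Neither contrast was tested. A match is a string of letters and not a measured binding site. PSMA7, PSMB1, PSMB6, PSMB7, PSMD4 and PSMG3 had no entry in the table.

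Among the alpha subunits, which form the outer rings and their gate, 0 of 7 tested genes passed, and the median log2 fold change was -0.030 (0.030 with the length trend removed). PSMA7, the most abundant of them, was at 406.5 and 392 CPM in the PBS libraries and at 401 and 382 CPM with nanoparticles, so the groups overlapped. PSMA4 was at 248 and 252 against 244 and 244 CPM, with the PBS values given before the nanoparticle values here and for the genes that follow (log2 fold change -0.035, SE 0.031, edgeR adjusted p = 0.635). Here both nanoparticle libraries were the lower ones, by an amount close to the standard error. PSMA5 (232 and 222 against 223 and 221 CPM) and PSMA3 (157 and 151 against 153 and 154 CPM) overlapped between the groups.

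PSMA1, PSMA2 and PSMA6 stood far below their ring partners, although each ring holds every alpha subunit once. PSMA2 had 8 and 10 counts with PBS and 11 and 17 with nanoparticles. PSMA6 had 136 and 142 counts with PBS and 156 and 151 with nanoparticles. PSMA1 had 408 and 413 counts with PBS and 429 and 445 with nanoparticles, or 18.3 and 18.5 against 17.2 and 17.9 CPM (log2 fold change -0.071, SE 0.075). In GENCODE 29 their exons are largely shared with another protein-coding gene model on the same strand, AC010132.3 for PSMA2 (52.5% of the principal transcript), AL121594.1 for PSMA6 (81.0%) and AC018523.2 for PSMA1 (53.2%). Those 3 overlapping models had 0 or 1 count in every library. PSMB10, an inducible beta subunit, shares 45.3% of its exon bases with AC040162.1, and PSMD9, an assembly chaperone, shares 43.8% with CFAP251 and AC069503.2.

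Levels between genes are compared here as CPM per kilobase of principal transcript, averaged over the 4 libraries. On that scale the 5 members with shared exons lay between 0.325 and 11.9, and the other 41 tested members of the particle and its helpers, none of which shared more than 0.071% on the same strand, between 19.8 and 519. HTSeq, the counter that the submitters name, leaves reads that fit more than 1 gene out of both in its default mode, and 4.78% to 4.81% of all reads were set aside as ambiguous. Whether the shared exons account for the low counts was not tested. Of the related genes, TAP2, a peptide transporter, shares 80.5% of its exon bases with AL669918.1 and was at 21.7 CPM per kilobase, and DDI2, a protease that activates NFE2L1, shares 17.4% with RSC1A1 and was at 3.435. The 5 members lie at chr11:14504874-14643635 (PSMA1, minus strand), chr7:42916857-42932223 (PSMA2, minus), chr14:35278633-35317493 (PSMA6, plus), chr16:67934502-67937087 (PSMB10, minus) and chr12:121888731-121918297 (PSMD9, plus) on GRCh38, and their counts are uncertain as levels.

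**Figure D3:**
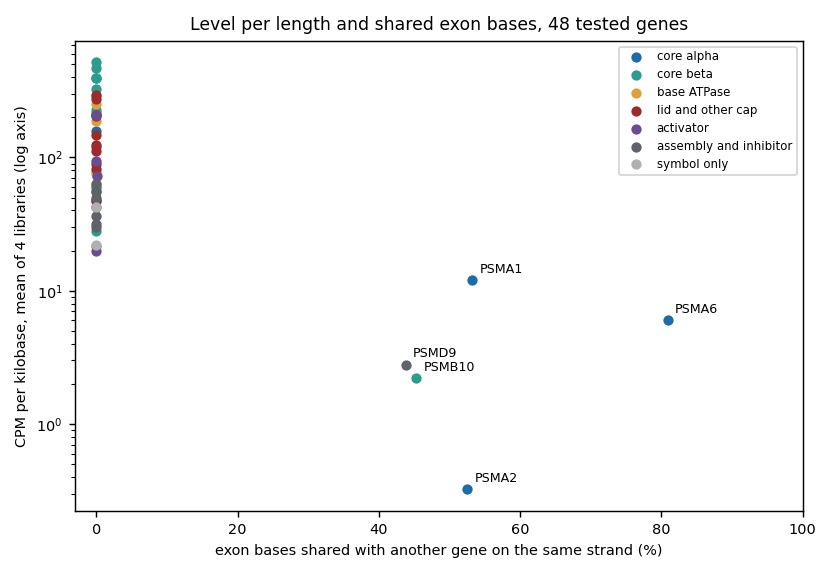
CPM per kilobase (mean of 4 libraries, log axis) against the percentage of principal-transcript bases shared with another gene on the same strand in GENCODE 29, for tested genes coloured by role. The 5 genes with 43.8% to 80.95% shared bases are the 5 lowest, at 0.325 to 11.9.

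The beta subunits carry the proteolytic sites. None of the 10 tested passed, and the median log2 fold change was -0.036 (0.019 with the length trend removed). PSMB1, a structural member of the ring with the highest level per length of the 41 genes (519 CPM per kilobase), was at 489 and 484 CPM in the PBS libraries and at 478 and 474 CPM with nanoparticles. PSMB4, also structural, was at 387 and 389 against 377 and 369 CPM (log2 fold change -0.056, SE 0.028, edgeR adjusted p = 0.333). In both genes the nanoparticle libraries lay below the PBS libraries, and neither difference passed. PSMB3, a structural subunit as well, was arranged alike at 182 and 178 against 177 and 169.6 CPM (log2 fold change -0.055), whereas PSMB2 overlapped at 319.5 and 326 against 323 and 325 CPM. In all, 6 of the 10 tested beta genes had both nanoparticle libraries below both PBS libraries and 0 had them above. Their median length was 972 bases, and of all 549 genes above 5 CPM with a principal transcript under 1000 bases, 55.7% were arranged that way.

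The 3 constitutive catalytic subunits were abundant in every library. PSMB5, the chymotrypsin-like subunit and main target of proteasome inhibitors used in myeloma, was at 285 and 281 CPM in the PBS libraries and at 281 and 269.7 CPM with nanoparticles (log2 fold change -0.039, 95% interval -0.11 to 0.027). PSMB6, the caspase-like subunit, was at 282 and 279 against 275 and 270.1 CPM (log2 fold change -0.042). PSMB7, the trypsin-like subunit, was at 460.2 and 455 against 454 and 452 CPM (log2 fold change -0.015). PSMB5 overlapped between the groups by a narrow margin, and PSMB6 and PSMB7 were the lower in both nanoparticle libraries by a few CPM.

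The inducible counterparts were low in all 4 libraries. PSMB8, which takes the place of PSMB5, was at 33.2 and 31.6 CPM in the PBS libraries and at 31.5 and 30.8 CPM with nanoparticles. PSMB9, which replaces PSMB6, was at 17.7 and 16.3 against 17.1 and 16.5 CPM, and PSMB10, which replaces PSMB7, at 2.74 and 2.55 against 3.24 and 2.29 CPM. Per kilobase, PSMB8 amounted to 13.4% and 13.0% of PSMB5 with PBS and to 12.9% and 13.2% with nanoparticles. PSMB9 amounted to 6.83% and 6.38% of PSMB6 with PBS and to 6.765% and 6.665% with nanoparticles, so both ratios overlapped between the groups. The ratio of PSMB10 to PSMB7 (0.408% to 0.5745%) is uncertain because of the shared exons of PSMB10. PSMB8 lies at chr6:32840717-32844703 on the minus strand and PSMB9 at chr6:32844136-32859585 on the plus strand. The span annotated for PSMB9 holds TAP1 (chr6:32845209-32853978, minus strand), a transporter gene that carries peptides into the endoplasmic reticulum.

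The 6 ATPases form the ring at the foot of the cap that unfolds substrates. None passed, and their median log2 fold change was 0.011 (0.046 with the length trend removed). PSMC5 was the most abundant, at 468 and 449.6 CPM in the PBS libraries and at 458 and 462 CPM with nanoparticles, and PSMC4 followed at 401 and 399 against 410.4 and 400.5 CPM. PSMC2 had the largest estimate of the ring, at 234 and 226 against 243 and 243.5 CPM (log2 fold change 0.080, SE 0.032, edgeR adjusted p = 0.209). Both of its nanoparticle libraries were the higher ones. PSMC6 (140 and 135 against 138 and 142 CPM) and PSMC3 (309 and 292 against 301 and 293 CPM) overlapped. PSMC1 (336 and 337 against 333 and 328 CPM) shares 82.1% of its exon bases with NRDE2 on the opposite strand. It was the most extreme of 9 members, with PSMC3IP, PSMD7, PSMC5, PSMG2, PSMD13, PSME2, PSMD11 and PSMD14, that shared at least 8.14% with an opposite-strand gene. No source used here gives the strand setting of the counter. Whether reads of those stretches were kept apart, left out of both genes or given to the wrong one was not tested.

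The other cap subunits hold the ubiquitin receptors, the scaffold and the lid with its deubiquitinase. None of the 11 passed, and the median log2 fold change was 0.017 (0.027 with the length trend removed and 0.0059 without nanoparticle replicate 1). PSMD2, a scaffold and docking subunit, was the most abundant member in CPM, at 703 and 695 CPM in the PBS libraries and at 715 and 708 CPM with nanoparticles. PSMD1, the other large scaffold, was at 405 and 404 against 407.5 and 420.1 CPM. Both were slightly the higher in the nanoparticle libraries without passing. PSMD8 (452 and 462 against 454 and 449.9 CPM), the ubiquitin receptor PSMD4 (387 and 366 against 372 and 366 CPM) and PSMD14, the deubiquitinase of the lid (288.5 and 283 against 284 and 287 CPM), overlapped between the groups. PSMD12, a lid subunit, was at 206 and 201 against 210.2 and 221 CPM (log2 fold change 0.082, SE 0.034, edgeR adjusted p = 0.223). PSMD11, the lid subunit whose level can limit assembly of the full particle, was at 192 and 189 against 198 and 198 CPM (log2 fold change 0.055). With these and PSMD6 (116 and 116 against 119 and 118 CPM), 5 of the 11 genes had both nanoparticle libraries above both PBS libraries, and PSMD7 alone (351 and 346 against 342 and 342.5 CPM) had them below. Over all tested genes 23.7% lay above and 23.2% below, and 34.4% lay above among genes of 2500 bases or more and above 5 CPM, the bin of all of the 5 but PSMD6. PSMD3 (239.7 and 238 against 247 and 237 CPM) and PSMD13 (188 and 175 against 182 and 171 CPM) overlapped.

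The activators open the core without the cap. PSME4, which encodes the large nuclear activator PA200, was at 137 and 131 CPM in the PBS libraries and at 143 and 151 CPM with nanoparticles. Both nanoparticle libraries were the higher ones, and this was the member nearest to the threshold (log2 fold change 0.14, SE 0.037, 95% interval 0.057 to 0.21, edgeR adjusted p = 0.0599). Its adjusted p ran from 0.0212 to 0.5555 over 15 alternatives, 4 of which called it higher. Leaving out nanoparticle replicate 2 gave a log2 fold change of 0.098, and leaving out replicate 1 gave 0.17. The gene lies at chr2:53864067-53970840 and, with 7099 bases, has the longest principal transcript of all members. With each library's trend on length removed its log2 fold change was 0.075 (edgeR adjusted p = 0.372). PSME1 and PSME2 encode the subunits of PA28, an interferon-inducible activator, and lie 4394 bases apart on chromosome 14. PSME1 was at 97.4 and 94.6 against 97.7 and 91.4 CPM and PSME2 at 103.5 and 106 against 99.6 and 101 CPM (log2 fold change -0.022 and -0.057). PSME3, the nuclear form of the same activator, was at 205 and 211 against 208 and 207 CPM. PSME1 and PSME3 overlapped between the groups. The median log2 fold change of the class was -0.012 (0.047 with the length trend removed), and 0 of 4 passed.

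Of the 8 genes for assembly chaperones and the inhibitor PSMF1, 0 passed, and the median log2 fold change was -0.020 (-0.00071 with the length trend removed). PSMD9, a chaperone of the ATPase ring, had the lowest estimate of all members, at 8.95 and 8.10 against 6.88 and 7.195 CPM (log2 fold change -0.28, SE 0.11, edgeR adjusted p = 0.2015). These values rest on 172 to 199 counts per library in a gene with shared exons. The other base chaperones, PSMD5 (108 and 107 against 109 and 113 CPM) and PSMD10, also called gankyrin (53.7 and 55.1 against 57.25 and 56.8 CPM), were the higher in both nanoparticle libraries without passing. The chaperones PSMG1 to PSMG4 guide the alpha ring. PSMG1 (93.8 and 90.3 against 90.3 and 90.9 CPM), PSMG2 (50.6 and 52.5 against 51.0 and 49.5 CPM) and PSMG3 (90.8 and 85.55 against 88.1 and 88.0 CPM) overlapped, and PSMG4 was at 47.6 and 47.1 against 46.45 and 43.8 CPM (log2 fold change -0.069). PSMF1 overlapped too, at 208 and 221 against 212 and 212 CPM.

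The genes with a matching symbol only were PSMC3IP, a factor of meiotic recombination, at 30.6 and 31.0 against 30.3 and 32.9 CPM, and PSME3IP1, which encodes a partner of PSME3, at 127 and 123 against 113 and 123 CPM (log2 fold change -0.083, SE 0.040, edgeR adjusted p = 0.303). PSMC3IP overlapped between the groups. In PSME3IP1 nanoparticle replicate 1 stood apart below the others, and nanoparticle replicate 2 lay just under the lower PBS library.

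Summed over each class, the alpha genes reached 1068 and 1042 CPM with PBS and 1045 and 1026 CPM with nanoparticles. The beta genes summed to 2459 and 2441 against 2416 and 2379 CPM, the ATPases to 1888 and 1839 against 1883 and 1869 CPM, and the other cap genes to 3529 and 3475 against 3530.0 and 3519 CPM. The activators summed to 543 and 543 against 549 and 551 CPM, and the assembly genes and inhibitor to 661 and 667 against 661 and 661 CPM. The beta and assembly sums were the lower and the activator sum the higher in both nanoparticle libraries, and the other 3 sums overlapped. For the assembly class the margin was slight, with 661.3 CPM in PBS replicate 1 against 661.0 CPM in nanoparticle replicate 2. Among the activators PSME4 alone had an estimate above 0, and 3 lay below. An exact two-sided permutation test of 2 libraries against 2 cannot give a p below 0.33, so these sums were not tested. In level per length, PSMB1, PSMB7 (464 CPM per kilobase), PSMA7 (397) and PSMB4 (395) headed the 41 genes, and PSMB8, PSMB9 and PSME4 (28.3, 21.6 and 19.8) closed them. PSMA7 and PSMB4, next to each other in that order, differed by less than their spread over libraries. These levels depend on which transcript is taken as principal.

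The small differences among members went with the length of the principal transcript, which may not be the one expressed here. The 41 members without exons shared on the same strand gave a Spearman rank correlation of 0.525 between length and log2 fold change. This is a description across genes that share the same 4 libraries. Over all 48 tested genes it was 0.344. All 10 members under 1000 bases had an estimate below 0 (median -0.031), where the 549 genes above 5 CPM of that length had a median of -0.071. Of the 12 members of 2500 bases or more, 8 had an estimate above 0 (median 0.030), where 7160 genes of that length had a median of 0.025. The long members below 0 were PSMA4, PSMA5, PSMC1 and PSMF1. In the longest bin 7 of 12 members had both nanoparticle libraries above both PBS libraries (34.4% of all genes in it), and in the shortest bin 6 of 10 had both below (55.7%).

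Once each library's length trend was removed, the correlation over the 41 members was -0.122 and their median log2 fold change was 0.027, with 31 estimates above 0 and 10 below, and no member passed. As reported, 14 of the 41 were above 0 and 27 below, so the majority sign of these small estimates turned with that correction. The median of all tested genes with the trend removed was -0.00057. Among the 41 genes the correlation of fold change with GC content was -0.459 (Spearman), and length and base composition were not told apart here.

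**Figure D4:**
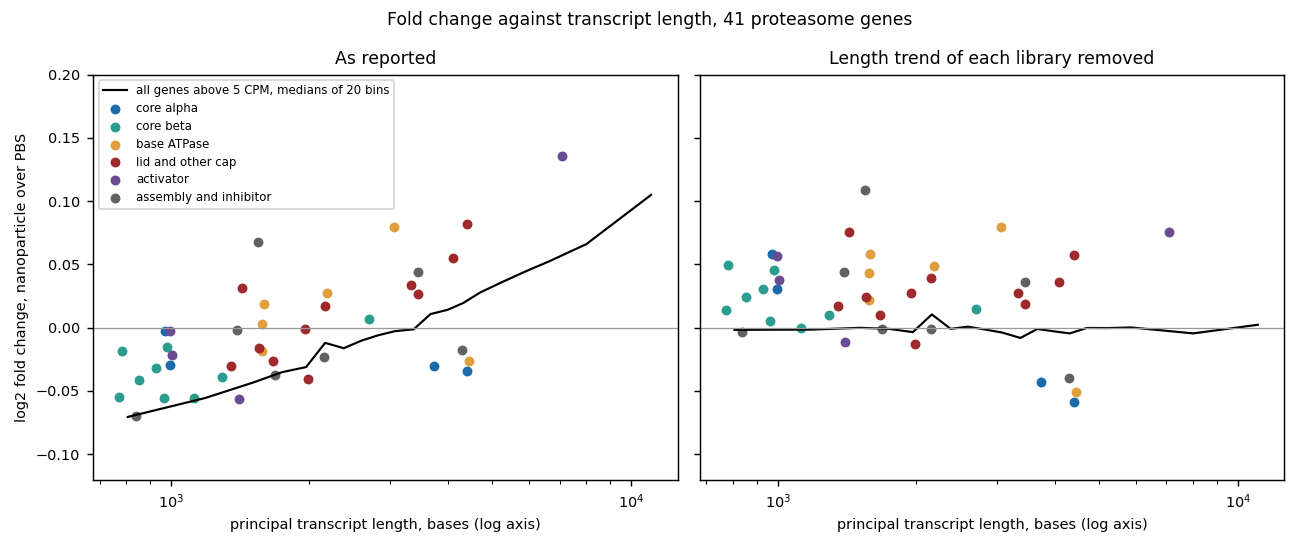
Log2 fold change of nanoparticle over PBS against principal transcript length in bases (log axis) for 41 members coloured by role, with the binned median of all genes above 5 CPM as a line, as reported on the left and with the length trend removed on the right. On the left the members slope upward as the line does, and on the right 31 of 41 lie above 0.

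Of 49 other genes of the ubiquitin-proteasome system, 48 had enough counts and none passed the edgeR test, against 2.58% of all genes tested. At an unadjusted p under 0.05 were 10 of them by edgeR (16.8% of all genes), 2 by DESeq2 (5.97%) and 10 by limma-voom (16.9%). NFE2L1, the regulator of the subunit genes, was at 415 and 430.1 CPM in the PBS libraries and at 429 and 428 CPM with nanoparticles, and the groups overlapped. NFE2L2, the factor of the antioxidant response, was at 138 and 143 against 149 and 149 CPM (log2 fold change 0.083, SE 0.035, edgeR adjusted p = 0.225), the higher in both nanoparticle libraries. POMP, the maturation factor of the core, overlapped at 151 and 141 against 144 and 143 CPM. SEM1, the smallest lid subunit, was at 171 and 167 against 159 and 164 CPM (log2 fold change -0.068), and the ubiquitin receptor ADRM1 at 374 and 369.9 against 369.8 and 353.5 CPM. Of the deubiquitinases bound to the cap, USP14 was at 224 and 219 against 228 and 229.8 CPM and UCHL5 at 57.3 and 60.3 against 56.3 and 61.4 CPM. TAP1, the transporter gene within the span of PSMB9, was at 133 and 129.6 against 127 and 124 CPM (log2 fold change -0.064, SE 0.035, edgeR adjusted p = 0.3865).

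PITHD1, a proteasome-associated protein singled out after its values were seen, was at 58.0 and 55.3 against 62.1 and 62.7 CPM (log2 fold change 0.14, edgeR adjusted p = 0.113). It passed with the length trend removed (edgeR adjusted p = 0.0492), where 1.45% of all genes were called. Of 15 alternatives, 2 called it. By sublist, 0 of 15 assembly and associated factors, 0 of 11 shuttle and segregase factors and 0 of 6 ubiquitin and activation genes passed. Among 7 regulators and 9 antigen processing genes 0 passed as well, against 2.58% of all tested genes. Over all 48 related genes the median log2 fold change was 0.0055.

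Transcripts that carry a subunit's name without coding for it were few. Of 44 pseudogene rows, PSMC1P1 alone had a mean of at least 10 counts, with 113 and 107 with PBS and 116 and 126 with nanoparticles, or 1.39% to 1.545% of the counts of PSMC1. The antisense transcript PSMA3-AS1 had 565 and 524 counts against 673 and 674, and PSMG3-AS1 had 148 and 150 against 161 and 133. These counts are not scaled for depth, which was greater in both nanoparticle libraries, and were not compared. By position, 8 members lie on chromosome 14 and 8 on chromosome 17. PSMB5 and PSMB11 are 6936 bases apart, and the annotated spans of PSMB8 and PSMB9 overlap.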

How the data were processed

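Messenger RNA of 4 H1299 libraries, 2 with PBS and 2 with ginseng nanoparticles, was analysed from the authors' deposited whole-number read counts per Ensembl gene, which carry no normalization. The submitters' processing notes name bcl2fastq 2.20, cutadapt 3.5, Picard, STAR 2.7.6a, HTSeq 2.0.2 and GRCh38, and no source used here gives the annotation release or strand setting. Rows for reads given to no gene (13.7% to 14.8% of reads) were left out. Totals of 22252686 to 24979081 counts on genes set the precision.

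Symbols came from a gene name table for 42045 of 61541 rows and otherwise from GENCODE 29, which also gave coordinates, lengths and exon overlaps and may differ from the release used for counting. Promoter windows came from RefSeq. Levels are TMM-scaled CPM. The groups were compared by edgeR 4.0.16 in R 4.3.3 (filterByExpr, quasi-likelihood, two-sided, Benjamini-Hochberg over 15778 genes, threshold 0.05). Alternatives were other scalings and filters, DESeq2 1.42.0, limma-voom (limma 3.58.1), the replicate number as a block, no mitochondrially encoded genes, each library's trend on length, or length and GC, removed (robust spline, MASS 7.3.60.0.1, genes above 5 CPM), and each library left out. Replicates differed beyond counting noise (chi-square per degree of freedom 1.78 and 1.95). The test was first run on simulated counts with known fold changes, and its outcome is not reported here. The simulation held no length trend, so it does not cover the one described above. The members and lists were chosen with earlier results of these data known. By rule, each class gives values for its 3 highest members and the 2 with the largest change above 5 CPM, for the catalytic subunits and for 8 related genes. The other members are given for completeness, and PITHD1, TAP2 and DDI2 were added after their values were seen.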

Additional observations from a re-analysis of the deposited data

How the results depend on the processing

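No member passed as reported or under 11 of 15 alternatives. In the others 1 member, PSME4, was called higher: with total-count scaling (adjusted p = 0.0396), a mean of at least 50 counts (0.0332), no mitochondrially encoded genes (0.0473) and the replicate number as a block (0.0212, edgeR). Same-numbered libraries hardly deviated together (r = 0.035 over 11107 genes), so numbers were not taken as pairs. PITHD1 was the 1 related gene called, with length removed (1.45% of all genes called) or with length and GC removed (1.7%). In 3 of the 11 (without PBS replicate 1, without PBS replicate 2, no low-count filter) no gene of the table passed, so they say nothing about members. With 1 library left out, the lone library of its group is assumed to vary like the other group. Class medians of log2 fold change that moved beyond the replicate spread were, with the length trend removed, 0.030 (core alpha), 0.019 (core beta), 0.046 (base ATPase), 0.027 (lid and other cap), 0.047 (activator), -0.00071 (assembly and inhibitor); with length and GC removed, 0.027 (core alpha), 0.017 (core beta), 0.024 (lid and other cap), 0.044 (activator), -0.0034 (assembly and inhibitor); with upper-quartile scaling, 0.00445 (lid and other cap), -0.033 (assembly and inhibitor); with no low-count filter, 0.027 (lid and other cap), -0.011 (assembly and inhibitor). Leaving out 1 library gave -0.037 to -0.0033 (core alpha), -0.062 to -0.018 (core beta), -0.012 to 0.026 (base ATPase), 0.0059 to 0.020 (lid and other cap), -0.026 to 0.015 (activator), -0.030 to -0.016 (assembly and inhibitor). Estimates of named genes that took the other sign, none called, were as follows. With the length trend removed they were PSMA3 0.059, PSMA6 0.040, PSMA7 0.030, PSMB1 0.030, PSMB3 0.014, PSMB4 0.0053, PSMB5 0.0100, PSMB6 0.024, PSMB7 0.046, PSMB9 0.050, PSMC3 0.022, PSMD4 0.017, PSMD7 0.010, PSMD8 0.024, PSMD14 0.027, PSME1 0.038, PSME3 0.057, PSMG3 0.044, NFE2L1 -0.0084, POMP 0.023, ADRM1 0.00047, UCHL5 -0.036. With length and GC trends removed they were PSMA3 0.031, PSMA6 0.029, PSMA7 0.027, PSMB1 0.026, PSMB3 0.012, PSMB4 0.0024, PSMB5 0.0071, PSMB6 0.022, PSMB7 0.043, PSMB9 0.049, PSMC3 0.021, PSMD4 0.015, PSMD7 0.0029, PSMD8 0.026, PSMD14 0.020, PSME1 0.035, PSME3 0.054, PSMG3 0.049, ADRM1 0.030, USP14 -0.011, UCHL5 -0.082. With total-count scaling they were PSMA3 0.0021, PSMD14 0.0034, PSME3 0.0018, PSMG3 0.0027. With no low-count filter they were PSMA3 0.0071, PSMD14 0.0084, PSME3 0.0067, PSMG3 0.0077. With upper-quartile scaling they were PSMB2 -0.0059, PSMC5 -0.0097, UCHL5 -0.011. Leaving out 1 library gave ranges across 0 for PSMA3 -0.029 to 0.022, PSMA5 -0.063 to 0.0018, PSMA6 -0.047 to 0.0091, PSMA7 -0.065 to 0.0052, PSMB2 -0.0088 to 0.020, PSMB9 -0.077 to 0.039, PSMB10 -0.21 to 0.29, PSMC3 -0.060 to 0.022, PSMC5 -0.026 to 0.030, PSMD3 -0.013 to 0.047, PSMD4 -0.071 to 0.0093, PSMD13 -0.094 to 0.013, PSMD14 -0.016 to 0.011, PSME1 -0.070 to 0.026, PSME3 -0.027 to 0.020, PSMG1 -0.051 to 0.0023, PSMG3 -0.045 to 0.040, PSMF1 -0.064 to 0.027, PSMC3IP -0.024 to 0.094, NFE2L1 -0.0061 to 0.046, POMP -0.074 to 0.023, UCHL5 -0.061 to 0.063, TAP2 -0.014 to 0.079. The cause was not tested.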
